A study of Mus musculus with 8 samples.

Results

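Transcripts of 9 signaling proteins, the 4 Janus kinases (Jak1, Jak2, Jak3 and Tyk2) and the STAT factors Stat2, Stat3, Stat5a, Stat5b and Stat6, were followed in mouse peritoneal macrophages. These members were found by gene symbol in a table of 55801 genes, each symbol occurred in 1 row, and all 9 passed the filter described below. The macrophages had been drawn into the abdominal cavity of young adult male C57BL/6 mice with thioglycollate broth and were cultured in 4 groups of 2 samples, 8 in all. NC received vehicle, LPS received vehicle for 0.5 h and then LPS, the endotoxin of Gram-negative bacteria, at 100 ng/ml for 4 h. C498 received the small molecule C498 at 15 µM in place of vehicle, and C498+LPS received C498 for 0.5 h before LPS. The study asks whether C498, which it describes as an inhibitor of both JAK/STAT and NFκB signaling, alters the response of these cells to LPS. Only RNA was measured in these samples, so the values describe the amount of transcript and not phosphorylation or protein.

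Type I and type II cytokine receptors carry no kinase of their own and rely on a pair of Janus kinases bound to their tails. When a cytokine joins the receptor chains, the kinases phosphorylate the receptor and then STAT factors, which pair through their SH2 domains, enter the nucleus and bind DNA. In macrophages the pathway transmits interferons, IL-6, IL-10, IL-4 and GM-CSF, and LPS reaches it indirectly through the cytokines that the cells secrete.

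Levels are in TPM, a read number corrected for gene length and scaled to a total common to all samples, so levels of different genes can be compared within a sample. A change is the difference between group means of log2(TPM + 1), which understates the change of genes at low TPM. Changes were tested with limma over the 12189 genes whose mean level reached 1 TPM, and p was adjusted over them by the Benjamini-Hochberg method. A gene was called when its fold change was at least 2 and its adjusted p at most 0.05. Nothing in the labels says that replicates came from separate mice or cultures, so p-values measure only the spread between these samples. TPM keeps no read number, so the sequencing depth of a value is not known.

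Of all genes, between 17528 and 18975 were above 0 in a sample. In NC, replicate 1 was above replicate 2 for 9 of 9 members, by a median of 0.48 on the log2 scale, beside a median of 0.20 over all tested genes. The same order held for 8 of 9 members in LPS (median 0.13), 5 in C498 (0.015) and 8 in C498+LPS (0.28). All 8 macrophage markers (among them Adgre1, Csf1r and Cd68) were present, with a summed level between 20099 and 20590 TPM in NC, 17938 and 18472 in LPS, 15939 and 16075 in C498, and 12420 and 14208 in C498+LPS. Most of this sum was Lyz2, which ran from 7831 to 15989 TPM, and single genes of the list could differ from it: Cd14 was at 235 and 252 TPM in NC, 1352 and 1250 in LPS, 686 and 663 in C498, and 1797 and 1794 in C498+LPS. The 6 fibroblast markers, which include the collagen genes Col1a1 and Col3a1, summed to between 150 and 200 TPM in NC and LPS and to between 618 and 911 TPM in the groups given C498, and none was at 0 in all samples. Mesothelial markers ran from 5.03 to 6.51 TPM without C498 and from 17.4 to 29.4 TPM with it. The B cell list ran from 41.0 to 52.4 TPM without C498 and from 59.2 to 132 TPM with it, that for NK cells from 1.49 to 1.59 and from 2.12 to 3.15, and that for dendritic cells from 0.89 to 2.09 and from 3.20 to 4.95. These sums too rest on few genes. Most of the B cell difference was Ighm (14.3 to 20.99 TPM without C498, 36.5 to 106 with it), while Cd22 was at 16.3 to 28.9 and at 11.4 to 22.5 TPM. Nkg7 made up most of the NK cell sum (0.80 to 1.07 and 1.14 to 2.54 TPM), while Klrb1c was at 0.05 to 0.27 TPM without C498 and at or under 0.05 with it. Zbtb46 led the dendritic cell sum with C498 (1.75 to 3.41 TPM, against 0.31 to 0.89 without it), and S100a8 the neutrophil sum (48.9 to 128 TPM over all samples). The neutrophil list ran from 82.3 to 135 TPM without C498 and from 52.6 to 81.6 TPM with it, and that for eosinophils from 1.58 to 2.21 and from 0.67 to 0.92. Lists for endothelial cells (18.5 to 31.6 TPM) and mast cells (8.81 to 22.9 TPM) were low, and that for T cells was at or under 6.47 TPM in every sample. The neutrophil genes Elane and Ngp and the eosinophil gene Epx were listed at 0 in all samples. Fewer cells of a type and less RNA per cell cannot be told apart in such bulk samples.

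Promoters of Jak2 and Stat2 are shown here because Jak2 carried the largest rise of any member in LPS vs NC and Stat2 held the only motif match among the members. Each is the stretch of 250 bases before the RefSeq start (GRCm38.p6, plus strand, at chr19:29251553-29251802 for Jak2 and chr10:128270248-128270497 for Stat2), and neither overlaps an annotated exon in GENCODE M21. Capitals in the Stat2 promoter mark the match to the ISRE core, the element bound by the complex of STAT2 and IRF9.
Jak2: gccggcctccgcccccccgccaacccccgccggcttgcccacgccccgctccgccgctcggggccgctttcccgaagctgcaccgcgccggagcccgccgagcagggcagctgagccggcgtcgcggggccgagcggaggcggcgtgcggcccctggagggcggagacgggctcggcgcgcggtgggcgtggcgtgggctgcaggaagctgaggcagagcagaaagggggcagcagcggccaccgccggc
Stat2: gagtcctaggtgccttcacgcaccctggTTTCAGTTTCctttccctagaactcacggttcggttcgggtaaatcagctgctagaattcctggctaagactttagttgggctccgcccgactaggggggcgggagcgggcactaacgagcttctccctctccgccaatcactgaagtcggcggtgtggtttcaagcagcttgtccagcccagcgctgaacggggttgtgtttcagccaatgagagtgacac
The search covered both strands for 3 motifs, the ISRE core (GAAA, then NN, then GAAA), the GAS element TTCNNNGAA bound by STAT pairs, and the kappaB element (GGG, then NNN, then TTCC) bound by NFκB. Motif matches were counted separately, and overlap between motifs was allowed. All 9 members had a RefSeq promoter, 11 in all because Stat5a and Stat5b each had more than 1 start. The ISRE core of Stat2, read on the minus strand, lay 222 to 213 bases before the start, and none of the other 10 promoters held any of the 3 motifs in these letters. The windows of Jak1, Jak3, Stat5a and Stat5b overlap, in part or in full, the gene itself as annotated in GENCODE M21. For these genes the absence of motifs therefore does not describe sequence upstream of the annotated gene. Among all 32851 promoters in the table, 2.98% held the ISRE core, 7.02% the GAS element and 4.65% the kappaB element. The Jak2 promoter had a GC content of 80.8%, against 56.8% for Stat2.

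Without LPS, Jak1 was the most abundant of the kinases, and after LPS Jak2 was. In NC the mean levels were 82.5 ± 26.2 TPM (SD, n = 2) for Jak1, 28.3 ± 10.1 for Jak2, 24.1 ± 2.55 for Tyk2 and 9.57 ± 0.856 for Jak3, and only Jak2 and Tyk2 overlapped among neighbours in this order. The LPS group had Jak2 at 143 ± 16.9 TPM, above Jak1 at 91.4 ± 10.04, Tyk2 at 29.1 ± 1.93 and Jak3 at 6.53 ± 0.233, with no overlap between neighbours. In C498 the order was that of NC, and in C498+LPS that of LPS, with no overlap between neighbours in either. Jak3, the kinase of receptors that hold the common gamma chain, was the lowest of the 4 in each group.

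**Figure D1:**
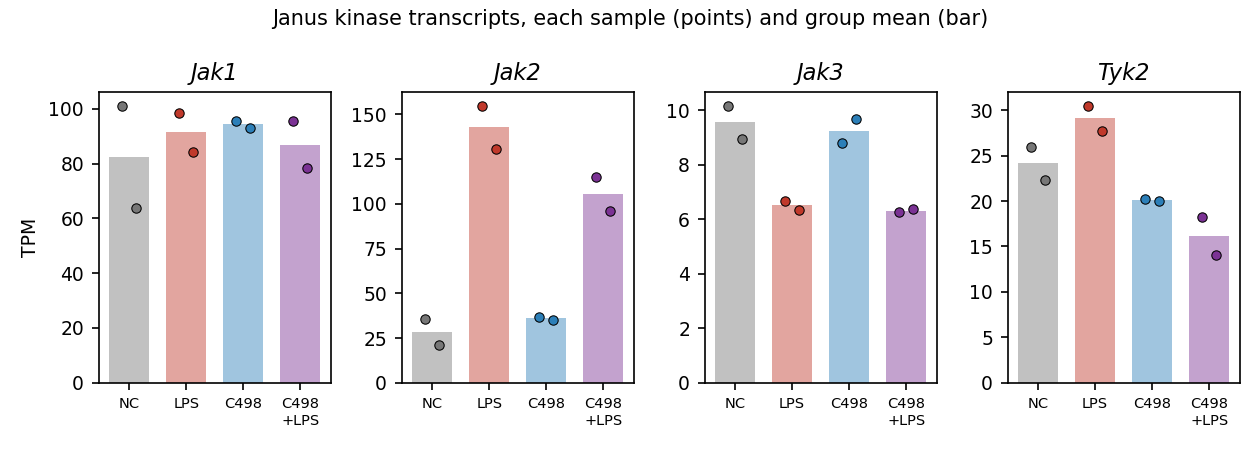
TPM of the 4 Janus kinases (y axis, from 0, a separate scale for each gene) in the 4 groups, with points for the 2 samples and bars for their mean. Both LPS samples of Jak2 (131 and 155 TPM) and both C498+LPS samples (96.2 and 115 TPM) stand above every sample without LPS, and Tyk2 is lowest in C498+LPS.

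Jak2 serves the receptors for IFN-γ, GM-CSF and growth hormone, and lies at chr19:29251828-29313080 (plus strand; GENCODE M21, GRCm38). Its level was 35.5 and 21.2 TPM in NC, 155 and 131 in LPS, 36.9 and 35.2 in C498, and 115 and 96.2 in C498+LPS. The 4 samples with LPS were all above the 4 without it, and both LPS samples were above both C498+LPS samples. In LPS vs NC, the mean of Jak2 rose 5.04-fold, or by 2.33 on the log2 scale (standard error 0.227, limma adjusted p = 0.000497). After C498, LPS raised it 2.93-fold, or by 1.52 on the log2 scale (standard error 0.227, limma adjusted p = 0.00639). This second call rested on single samples: the limma adjusted p was 0.0597 without C498 replicate 1, 0.0668 without C498 replicate 2 and 0.0547 without C498+LPS replicate 1, at log2 changes of 1.39 to 1.55. In C498+LPS vs LPS the log2 change was -0.43 (95% interval -0.97 to 0.10, limma adjusted p = 0.248) and did not pass. The difference between its responses to LPS with and without C498, the interaction, was -0.81 (limma unadjusted p = 0.0383, adjusted p = 0.417) and did not pass either. This interaction ran from -1.17 without NC replicate 1 to -0.45 without NC replicate 2.

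Jak1, the partner kinase at interferon, IL-6 and common gamma chain receptors, was measured at 101 and 64.0 TPM in NC, 98.5 and 84.3 in LPS, 95.7 and 93.2 in C498, and 95.5 and 78.2 in C498+LPS. All 4 groups overlapped around the same level. Its log2 changes ran from -0.13 in C498+LPS vs C498 to 0.23 in C498 vs NC, with 95% intervals that reached from -0.63 to 0.73, and none passed the test. The smallest of its limma adjusted p over the 4 comparisons was 0.492.

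For Tyk2, the kinase of the type I interferon, IL-12 and IL-23 receptors, the values were 25.9 and 22.3 TPM in NC, 30.5 and 27.7 in LPS, 20.2 and 20 in C498, and 18.3 and 14.0 in C498+LPS. The groups did not overlap in any of the 4 comparisons: LPS was highest, then NC, then C498, then C498+LPS. Mean TPM in C498+LPS was 0.555 of that in LPS, or -0.82 on the log2 scale (standard error 0.156, limma adjusted p = 0.0134), which passed the adjusted p but not the fold threshold. That p was 0.105 without LPS replicate 1, 0.0727 without LPS replicate 2 and 0.0851 without C498+LPS replicate 2 in limma. The other comparisons gave 0.26 in LPS vs NC, -0.31 in C498+LPS vs C498 and -0.25 in C498 vs NC, with limma adjusted p of 0.251, 0.222 and 0.316. Its interaction was -0.57 (limma unadjusted p = 0.0348, adjusted p = 0.408).

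Levels of Jak3 were 10.2 and 8.96 TPM in NC, 6.69 and 6.36 in LPS, 8.81 and 9.70 in C498, and 6.26 and 6.39 in C498+LPS. The samples with LPS were all below those without it. In LPS vs NC Jak3 fell by 0.49 on the log2 scale (standard error 0.152, limma adjusted p = 0.0484), past the adjusted p alone, and it stayed past it in 3 of 16 alternative settings, with a highest adjusted p of 0.193. The change in C498+LPS vs C498 was -0.48 (limma adjusted p = 0.0717) and did not pass. Jak3 overlaps Insl3 on the same strand of chromosome 8, and 6.92% of the stretches of 31 bases in its transcripts also occur in Insl3, whose mean level was 1.58 TPM.

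As a share of the summed TPM of the 4 kinases, which does not depend on the scaling of a sample, Jak2 made up 20.5% and 18.2% in NC, 53.3% and 52.5% in LPS, 22.8% and 22.3% in C498, and 48.9% and 49.4% in C498+LPS. Jak1 took 56.7% on average in NC and 33.9% in LPS, then 59.1% in C498 and 40.4% in C498+LPS. Tyk2 went from 17.1% in NC to 10.8% in LPS and from 12.6% in C498 to 7.49% in C498+LPS. None of these shares overlapped between any of the groups compared. With 2 samples against 2 the exact two-sided permutation p was 0.333 for each of them, the smallest this design allows, so no share can pass 0.05.

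Among the STAT factors, Stat6 had the highest mean without LPS and Stat2 with it. In NC, Stat6 was at 166 ± 82.8 TPM (SD, n = 2), Stat2 at 107 ± 20.9, Stat3 at 75.5 ± 19.2, Stat5b at 17.7 ± 4.36 and Stat5a at 15.5 ± 3.54. Stat6 overlapped Stat2, and Stat5b overlapped Stat5a. Under LPS the order was Stat2 at 169 ± 2.13 TPM, Stat3 at 93.0 ± 6.21, Stat6 at 79.4 ± 1.43, Stat5a at 59.5 ± 9.07 and Stat5b at 20.1 ± 3.46, with no overlap between neighbours. The C498 group kept Stat6 first, overlapping Stat3 in the next place, and in C498+LPS Stat2 led, with Stat3 overlapping Stat6 and Stat6 overlapping Stat5a, and Stat5b last without overlap.

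**Figure D2:**
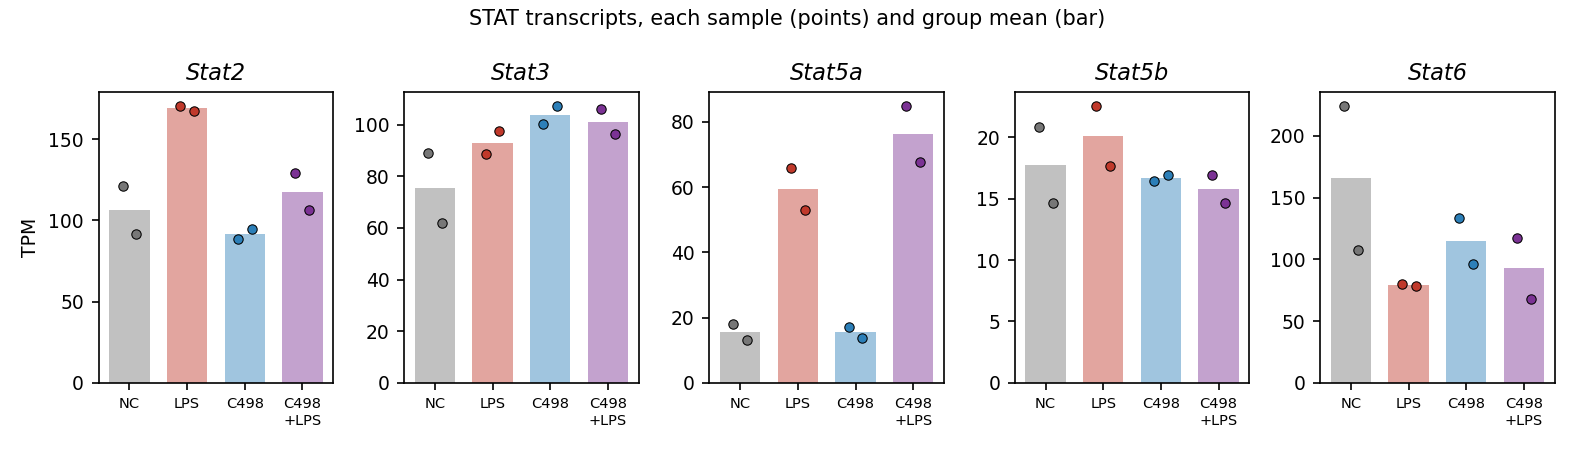
TPM of the STAT transcripts (y axis, from 0, a separate scale for each gene) in the 4 groups, with points for the 2 samples and bars for their mean. Stat5a is at 53.1 to 84.9 TPM in the samples with LPS and at 13.0 to 18.0 TPM in those without, whereas Stat5b lies between 14.7 and 22.6 TPM throughout, and the NC samples of Stat6 are far apart (107 and 224 TPM).

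Stat5a and Stat5b, paralogs that follow GM-CSF, IL-2 family cytokines and growth hormone, lie side by side on chromosome 11 in opposite orientation with 8626 bases between them (Stat5b at chr11:100780731-100850724, Stat5a at chr11:100859351-100885169; GENCODE M21, GRCm38). Stat5a was at 18.0 and 13.0 TPM in NC, 65.9 and 53.1 in LPS, 17.1 and 13.8 in C498, and 84.9 and 67.9 in C498+LPS. Every sample with LPS was above every sample without, and both C498+LPS samples were above both LPS samples. Stat5a rose 3.84-fold in LPS vs NC, or by 1.88 on the log2 scale (standard error 0.205, limma adjusted p = 0.000813). It rose 4.95-fold in C498+LPS vs C498, or by 2.23 on the log2 scale (standard error 0.205, limma adjusted p = 0.000908). Both calls held in all 16 alternative settings of each comparison. In C498+LPS vs LPS the log2 change was 0.35 (95% interval -0.13 to 0.84, limma adjusted p = 0.293), and the interaction was also 0.35 (limma adjusted p = 0.70), neither past the test. The first ran from 0.19 without C498+LPS replicate 1 to 0.51 without C498+LPS replicate 2. The interaction ran from 0.13 without NC replicate 1 to 0.57 without NC replicate 2.

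Its paralog Stat5b was at 20.8 and 14.7 TPM in NC, 22.6 and 17.7 in LPS, 16.4 and 16.9 in C498, and 16.9 and 14.7 in C498+LPS. No comparison passed, and the smallest limma adjusted p was 0.318, at a log2 change of -0.32 (95% interval -0.79 to 0.14) in C498+LPS vs LPS, where the groups did not overlap. The ratio of Stat5a to Stat5b was 0.865 and 0.886 in NC, 1.04 and 0.815 in C498, 2.92 and 3.01 in LPS, and 5.03 and 4.63 in C498+LPS. So the ratio was above 1 in all samples with LPS, and it was higher in both C498+LPS samples than in either LPS sample (exact two-sided permutation p = 0.333, the smallest possible). Of the stretches of 31 bases in Stat5a transcripts, 11.5% also occur in Stat5b, and of those in Stat5b 15.1% occur in Stat5a, so part of the reads could be split between them. The 3′ ends of Stat5a and Stat3 overlap by 72 bases on opposite strands, and reads there cannot be told apart unless counting used strand, which is not stated in the sources used here.

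Stat2, which joins STAT partners and IRF9 downstream of type I interferon, was at 121 and 91.8 TPM in NC, 171 and 168 in LPS, 88.7 and 94.8 in C498, and 129 and 106 in C498+LPS. Both LPS samples stood above all other samples. In LPS vs NC it rose by 0.67 on the log2 scale (standard error 0.152, limma adjusted p = 0.0152), past the adjusted p but not the fold threshold. The adjusted p was 0.0640 in limma with only the compared groups fitted, 0.0871 without LPS replicate 1 and 0.0779 without LPS replicate 2. After C498 the change with LPS was 0.35 (limma adjusted p = 0.161), and its mean in C498+LPS was 0.697 of that in LPS, a log2 change of -0.52 (95% interval -0.88 to -0.17, limma adjusted p = 0.0567). Neither passed, although the groups did not overlap. Over 16 alternative settings each, the first passed the adjusted p in 1 (centring) and the second in 4, with limma adjusted p from 0.0128 to 0.281. The interaction of Stat2 was -0.32 (limma adjusted p = 0.645).

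Stat3, the factor of IL-6 and IL-10 receptors, was at 89.1 and 61.9 TPM in NC, 88.6 and 97.4 in LPS, 100.4 and 107 in C498, and 106 and 96.5 in C498+LPS. Both C498 samples were above both NC samples, at a log2 change of 0.48 (95% interval 0.08 to 0.87, limma adjusted p = 0.0998), which did not pass. In LPS vs NC the groups overlapped, with a change of 0.32 (limma adjusted p = 0.199). NC replicate 2 was the lowest sample of Stat3, and without NC replicate 1 the changes were 0.58 with LPS (limma adjusted p = 0.0142) and 0.74 with C498 (limma adjusted p = 0.0105). Without NC replicate 2 they were 0.060 (limma adjusted p = 0.708) and 0.22 (limma adjusted p = 0.240). Its groups overlapped in C498+LPS vs C498 and in C498+LPS vs LPS.

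For Stat6, the factor of IL-4 and IL-13, the samples read 224 and 107 TPM in NC, 80.4 and 78.4 in LPS, 133 and 96.2 in C498, and 117 and 67.7 in C498+LPS. Its replicates differed more than those of any other member in NC, C498 and C498+LPS, and its LPS samples lay close together. Both LPS samples were below both NC samples, with -0.96 on the log2 scale (standard error 0.376, limma adjusted p = 0.0976), which did not pass. The NC replicates decided the value, which was -0.43 without NC replicate 1 (limma adjusted p = 0.387) and -1.49 without NC replicate 2 (limma adjusted p = 0.0283). No other comparison of Stat6 passed, with log2 changes between -0.45 and 0.17 and a smallest limma adjusted p of 0.448.

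Of the summed TPM of the 5 STAT members, Stat5a made up 4.15% ± 0.495 (SD, n = 2) in NC, 14.1% ± 1.82 in LPS, 4.49% ± 0.420 in C498 and 19.0% ± 0.372 in C498+LPS. Stat6 had 42.2% ± 7.22 in NC and 18.8% ± 0.103 in LPS, then 33.4% ± 5.83 in C498 and 22.5% ± 4.72 in C498+LPS. Stat2 had 28.7% ± 4.38 in NC and 40.2% ± 0.435 in LPS, then 26.9% ± 2.75 in C498 and 29.3% ± 1.21 in C498+LPS. The Stat5a and Stat6 shares did not overlap between samples with and without LPS of the same pretreatment, and the Stat2 share did not overlap in LPS vs NC or C498+LPS vs LPS.

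**Figure D3:**
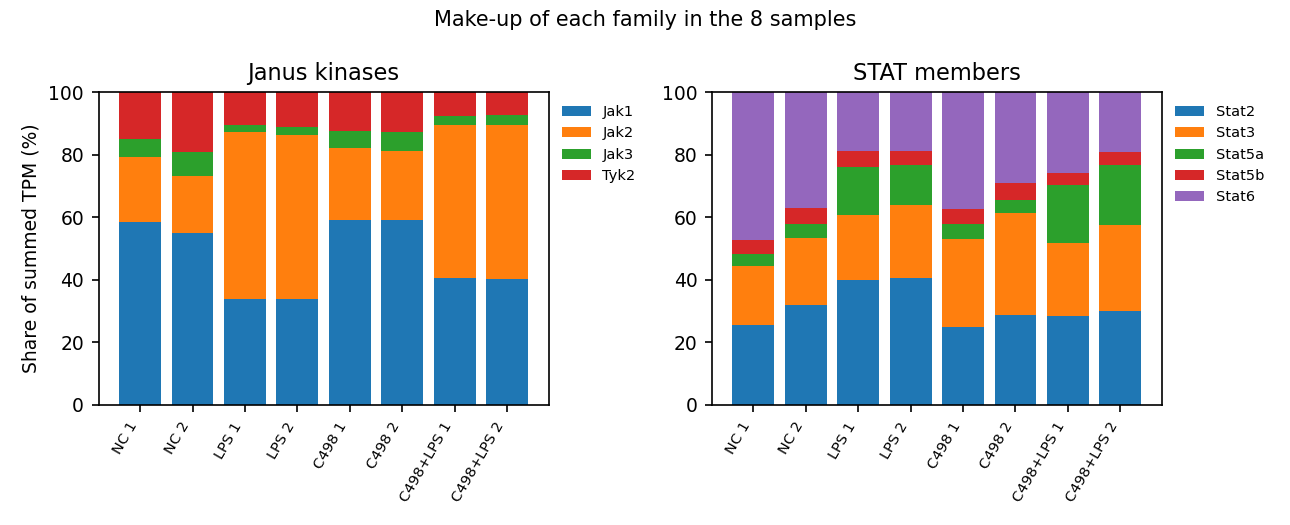
Share of each kinase in the summed TPM of the 4 Janus kinases (left) and of each STAT in that of the 5 STAT members (right), in percent, 1 bar per sample. Jak2 takes 48.9% to 53.3% of the kinase total in the samples with LPS and 18.2% to 22.8% in those without.

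Counted together, 2 of 9 members (Jak2 and Stat5a) were called higher and 0 lower in LPS vs NC, beside 5.55% of all tested genes called higher and 6.68% called lower. Below 0, limma gave 2 members (Jak3 and Stat6) an unadjusted p under 0.05 there, beside 28.4% of tested genes, and 1 (Jak3) after C498, beside 24.2%. By the adjusted p alone, 3 were higher (with Stat2), beside 9.84% of tested genes, and 1 was lower (Jak3), beside 19.8%. In C498+LPS vs C498 the same 2 members were called higher and 0 lower, by either rule, beside 2.52% and 3.13% of tested genes called with the fold threshold, and 4.51% and 11.7% past the adjusted p alone. The limma log2 change of Jak2 ranked 135 among the 12189 tested genes in LPS vs NC and 202 after C498, and that of Stat5a ranked 234 and 92. The median log2 change over the members was 0.26 for LPS vs NC and -0.079 after C498, beside -0.17 and -0.18 over all tested genes. Centred on the median gene, the log2 changes of Jak2 were 2.50 and 1.73 in the same order, those of Stat5a 2.05 and 2.45, those of Stat2 0.84 and 0.57, and those of Jak3 -0.32 and -0.27. With centring, Jak1, Stat3 and Stat5b were above 0 in C498+LPS vs C498 (0.088, 0.18 and 0.14) where they were below 0 without it, and in LPS vs NC Stat3 (0.49, limma adjusted p = 0.0285) and Tyk2 (0.43, limma adjusted p = 0.0479) passed the adjusted p. Centring also took Stat2 past it in C498+LPS vs C498 (0.57, limma adjusted p = 0.0198) and in C498+LPS vs LPS (-0.60, limma adjusted p = 0.0128).

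In C498+LPS vs LPS, 0 members were called in either direction, beside 5.39% of tested genes called higher and 2.18% called lower. Tyk2 was the 1 member lower by the adjusted p alone, beside 7.7% of tested genes, and 0 were higher, beside 9.08%. Below 0, limma gave 2 members (Tyk2 and Stat2) an unadjusted p under 0.05, beside 15.1% of tested genes. The medians were -0.076 over the members and 0.0065 over all tested genes. In C498 vs NC, 0 members were called, beside 5.64% higher and 1.36% lower, and 0 passed the adjusted p alone, beside 9.29% higher and 6.19% lower. There, 1 member (Stat3) was higher with an unadjusted p under 0.05 in limma, beside 17.4% of tested genes. NC replicate 1 bore on this count: without it Stat3, Jak2 (0.74, limma adjusted p = 0.0240) and Jak1 (0.55, limma adjusted p = 0.0486) passed the adjusted p, and without NC replicate 2 Jak2 was at 0.022 (limma adjusted p = 0.945) and Jak1 at -0.097 (limma adjusted p = 0.712). The interaction called 0 members in limma, beside 0.468% of tested genes in either direction, and 2 members (Jak2 and Tyk2) were below 0 with an unadjusted p under 0.05, beside 6.21%. C498+LPS vs LPS and C498 vs NC each set a group with low fibroblast marker sums against a group with high ones. The macrophage marker sums also differed, as given above. Their part in the values of the members was not tested.

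**Figure D4:**
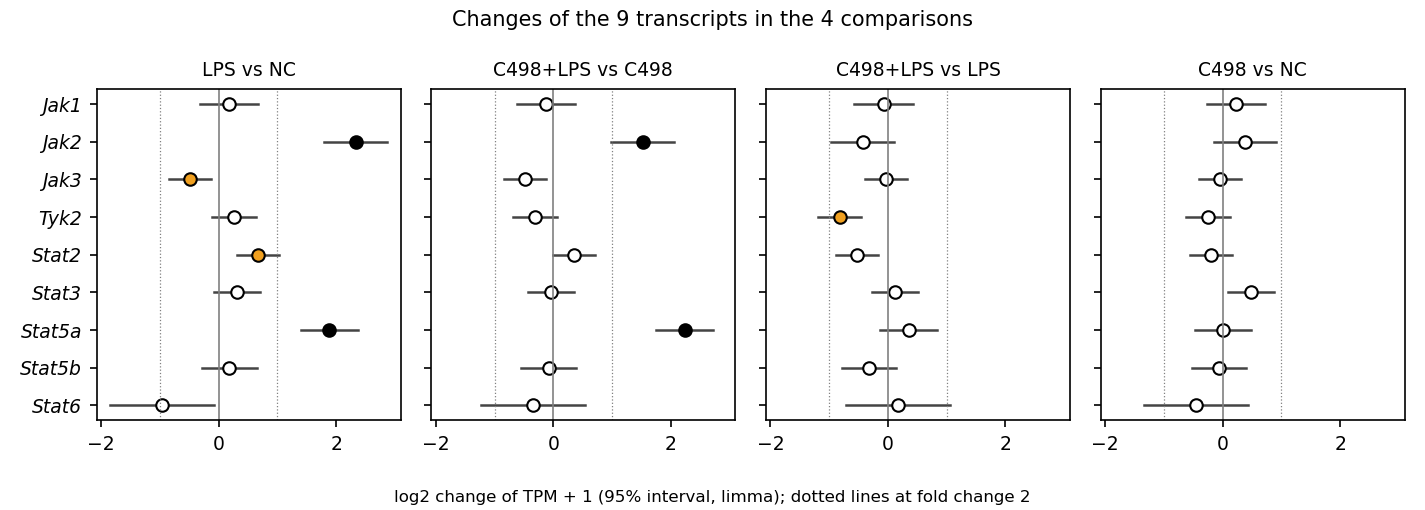
Log2 change of TPM + 1 (x axis) of the 9 members (y axis) in 4 comparisons, with lines for the 95% interval from limma. Black points were called, orange points passed the adjusted p alone and white points did not pass. Jak2 and Stat5a lie past the dotted fold threshold of 2 in both comparisons with LPS, and no point does in C498+LPS vs LPS or C498 vs NC.

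Comparison of LPS with NC and of C498+LPS with LPS used the same LPS samples. Read side by side, the log2 changes in the first and the second were 2.33 and -0.43 for Jak2, 0.67 and -0.52 for Stat2, and 1.88 and 0.35 for Stat5a.

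Over the 8 samples, the genes whose pattern was most like that of Jak2 were Slfn9 (Pearson's r = 0.999), Rnf11 (r = 0.998) and Herc6 (r = 0.997), among 11875 genes with a symbol. Slfn9 was at 4.21 and 2.51 TPM in NC, 17.6 and 15.8 in LPS, 4.20 and 4.09 in C498, and 13.1 and 11.7 in C498+LPS. For Stat5a they were Adamts4 (r = 0.985), Plet1 (r = 0.984) and Adora2b (r = 0.979). Adora2b, an adenosine receptor, was at 6.53 and 5.46 TPM in NC, 25.9 and 21.4 in LPS, 6.21 and 4.37 in C498, and 24.4 and 17.9 in C498+LPS. Adamts4 and Plet1 were at most at 4.64 TPM in any sample and at most at 0.41 TPM in those without LPS. Both passed the minimum mean through the samples with LPS, so their likeness to Stat5a was in part set by the filter. These values of r describe 4 pairs of samples that fall into a group with LPS and a group without.

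The other genes of the pathway were followed through 8 lists with 135 genes, of which 117 were tested. Of 23 listed cytokine ligands, 10 did not reach the minimum mean and were not tested. Of the other 13, 10 were called higher and 0 lower in LPS vs NC, beside 5.55% and 6.68% of all tested genes. Among the 13, 4 (Il10, Lif, Csf2 and Il12b) averaged under 1 TPM in NC and passed the minimum through groups where they were higher, so the count is a description of the tested ligands and says nothing of the list. The shares of all tested genes, here and as given above for the other comparisons, are the background of the list counts that follow. Il6, whose receptor uses Jak1 and Stat3, was at 1.43 ± 0.530 TPM (SD, n = 2) in NC and 522 ± 14.5 in LPS (log2 change 7.77). With C498 before LPS, 5 ligands were called higher and 3 lower than with LPS alone, beside 5.39% and 2.18% of tested genes. Of those 5, Il10 averaged 0.91 TPM in LPS and passed the minimum through C498+LPS (3.28 TPM), and of the 12 ligands at 1 TPM or more in LPS 4 were called higher. Il12a, which signals through Tyk2 and Jak2, fell from 170 ± 7.99 TPM in LPS to 49.8 ± 5.01 in C498+LPS, and Il27 fell from 247 ± 9.86 to 99.7 ± 0.0354. Ifng, the ligand of the receptor that uses Jak1 and Jak2, rose from 5.44 ± 0.304 to 36.9 ± 15.7 TPM. In C498 vs NC, 6 of the 13 ligands were called higher and 0 lower, and of the 9 at 1 TPM or more in NC 5 were called higher. The interaction called 4 of the 13 lower and 0 higher, beside 0.394% and 0.0738% of tested genes. Lif, a ligand of the IL-6 family, rose from 0.525 ± 0.00707 TPM in NC to 10.6 ± 1.97 in C498. It is 1 of those that passed the minimum through other groups. The marker sums of NK cells (2.12 to 3.15 TPM with C498, 1.49 to 1.59 without), B cells, dendritic cells and fibroblasts, the first 3 led by single genes as given above, were higher in the same samples as Ifng and Lif, and their part was not tested.

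The cytokine receptors were counted in the same way. Of 30 listed, 5 were not tested, and of the 25 tested 1 was called higher and 2 lower in LPS vs NC, and 2 higher and 1 lower in C498+LPS vs LPS. With C498 alone, 1 was called higher and 1 lower than in NC. Il15ra rose from 16.9 ± 1.31 to 78.7 ± 3.35 TPM (SD, n = 2) with LPS, while Il6ra fell from 9.80 ± 4.02 to 2.15 ± 0.247 and Ifngr1 from 49.9 ± 4.77 to 23.9 ± 2.55. Osmr, the oncostatin M receptor, was called higher in both comparisons with C498, from 1.29 ± 0.113 TPM in NC to 9.87 ± 1.11 in C498 and from 1.99 ± 0.106 in LPS to 10.5 ± 1.17 in C498+LPS. The fibroblast marker sums were higher in the same samples, and their part was not tested.

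All 20 negative regulators were tested. In LPS vs NC, 5 were called higher and 0 lower. Socs1 and Socs3, which block Janus kinases, rose from 12.8 ± 1.77 to 82.2 ± 4.69 TPM and from 63.6 ± 2.59 to 269 ± 20.7 TPM (SD, n = 2). Against LPS alone, 1 was called higher in C498+LPS (Cish, an inhibitor of Stat5 signaling, from 11.7 ± 0.361 to 30.8 ± 1.35 TPM) and 2 lower. Those 2 were the phosphatase gene Ptpn6, from 222 ± 3.97 to 91.2 ± 4.82 TPM, and Usp18, which restrains the type I interferon receptor, from 374 ± 17.9 to 184 ± 1.97 TPM. With C498 alone, 3 were called higher than in NC and 0 lower: Socs1, Socs3 (162 ± 8.17 TPM, log2 change 1.34) and Cish (from 3.01 ± 0.198 to 9.78 ± 1.14 TPM). Of the 11 partners of STAT complexes, only Rel was called in LPS vs NC and in C498 vs NC (higher in both), and 0 were called in C498+LPS vs LPS. Rel is an NFκB subunit and was at 5.77 ± 2.74 TPM in NC, 20.4 ± 3.51 in LPS and 16.2 ± 2.00 in C498.

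The known target genes of the STAT members were counted by factor. Of 20 targets of Stat2 and IRF9, 12 were called higher and 0 lower in LPS vs NC (median log2 change 1.74), with Rsad2, an antiviral enzyme, at 81.8 ± 21.2 TPM in NC and 1389 ± 61.4 in LPS (SD, n = 2). In C498+LPS vs C498, 11 of the 20 were called higher and 0 lower (median 1.34). Against LPS alone, 0 of the 20 were called in C498+LPS, and 15 were lower by the adjusted p alone (median -0.68), beside 7.7% of tested genes and Stat2 itself at -0.52. The macrophage marker sum, mostly Lyz2, was also lower in C498+LPS than in LPS, and its part was not tested. In C498 vs NC, without LPS, 1 of the 20 was called higher (Rsad2, at 164 ± 0.219 TPM in C498) and 0 lower, 8 were lower by the adjusted p alone, beside 6.19% of tested genes, and 1 of the 20 was called lower in the interaction. Of 16 targets of Stat3, 4 were called higher and 2 lower in LPS vs NC, and 2 higher and 4 lower in C498+LPS vs LPS. In C498 vs NC, 6 of the 16 were called higher and 1 lower, and 3 were called lower in the interaction. Against LPS alone, Lcn2 fell from 605 ± 37.8 to 246 ± 11.2 TPM in C498+LPS, and Timp1, which fibroblasts also express, rose from 152 ± 8.85 to 545 ± 136. Lcn2 is also a granule gene of neutrophils. Their marker sum, mostly S100a8, was 97.3 to 123 TPM in LPS and 72.2 to 81.6 TPM in C498+LPS. Of the same list, Camp (2.95 and 3.30 TPM, then 0.81 and 0.21) and Retnlg (4.43 and 4.11, then 0.42 and 0.66) were also lower in C498+LPS. S100a9 was at 0 TPM in both LPS samples and at 0.86 and 0.23 TPM in C498+LPS. The part of neutrophils was not tested. Of 12 targets of Stat5a and Stat5b, 11 were tested, of which 4 were called higher and 1 lower in LPS vs NC, and 3 higher and 0 lower in C498+LPS vs LPS, among them Cish and Osm (10.8 ± 1.72 to 26.5 ± 2.69 TPM). In C498 vs NC, 4 of the 11 were called higher and 0 lower, with Osm at 4.63 ± 0.113 TPM in NC and 38.2 ± 2.87 in C498, and 3 of the 11 were called lower in the interaction. Of 16 targets of Stat6, 13 were tested, of which 3 were called higher and 2 lower in LPS vs NC (Pparg fell from 23.5 ± 2.09 to 5.37 ± 0.191 TPM), and 2 higher and 0 lower in C498+LPS vs LPS. In C498 vs NC, 4 of these 13 were called higher and 1 lower, and the interaction called 0. Irf4 is 1 of the higher calls in each of the C498 vs NC and C498+LPS vs LPS counts. It averaged 0.46 TPM in NC and 0.80 in LPS, and passed the minimum through the groups given C498 (1.99 and 3.59 TPM). Some genes stand in more than 1 list, and the lists describe known targets, not binding in these cells.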

How the data were processed

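RNA from 8 samples of mouse peritoneal macrophages was sequenced on an Illumina NovaSeq by the authors. Per the labels and the methods, reads were filtered with fastp, aligned with HISAT2, assembled with StringTie and quantified with RSEM. The authors deposited 1 TPM value per gene and sample, with 2 decimals. Tool versions, genome build, annotation and use of strand are not given in the sources used here, and loci are those of GENCODE M21 on GRCm38, matched by Ensembl identifier. TPM gives no depth, so no counting error could be set. The study's test on counts was replaced by limma 3.58.1 (R 4.3.3) on log2(TPM + 1) with a pseudocount of 1, 1 mean per group over all 8 samples and a variance trend, for genes whose mean level reached 1 TPM. The 4 residual degrees of freedom are shared by the groups. Thresholds were a fold change of 2 and an adjusted p of 0.05 over all tested genes. Shares and ratios used exact permutation tests. Steps were tested on simulated data. Columns of group means and annotation were not used. Other steps used numpy 2.4.6, scipy 1.17.1 and matplotlib 3.10.9.

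The members, the lists of pathway genes and markers and the alternatives were chosen with earlier results of these data known. From each list were named up to 2 genes per direction with the largest called, non-overlapping change in LPS vs NC, C498+LPS vs LPS or C498 vs NC, and of these a selection is given, together with the 3 genes most correlated with each called member. Alternatives were another pseudocount, other filters on low values, centring, quantile normalization, only the compared groups, no variance trend, a replicate block, no fold threshold and leaving out each sample.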

Additional observations from a re-analysis of the deposited data

Results flagged for a closer look

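The samples of Tyk2 separated in opposite directions with LPS in the absence and in the presence of C498, although neither change passed the test (0.26, limma adjusted p = 0.251, and -0.31, limma adjusted p = 0.222): both LPS samples (30.5 and 27.7 TPM) were above both NC samples (25.9 and 22.3 TPM), and both C498+LPS samples (18.3 and 14.0 TPM) were below both C498 samples (20.2 and 20 TPM). The test of the difference, the interaction in limma, gave -0.57 (unadjusted p = 0.0348, adjusted p = 0.408) and did not pass. The change in C498+LPS vs C498 was -0.096 with centring (limma adjusted p = 0.685) and -0.12 with quantile normalization (limma adjusted p = 0.554). Groups of 2 samples are too small for a test of single outlying samples.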

How the results depend on the processing

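The values rest on 2 samples a group, without counts or depth, and on 1 scaling of TPM. Of 711 log2 changes recomputed under the alternatives, 676 kept their direction and their call, 3 lost the call, 2 gained one and 30 changed sign. All sign changes were of values that had not passed. Without the fold threshold, 1 member was lower in LPS vs NC (Jak3) and 1 in C498+LPS vs LPS (Tyk2). With 1 sample left out, the lone sample of its group was assumed to vary like the others. The count of lower members then ran from 0 to 1 in LPS vs NC (Stat6, without NC replicate 2) and in C498+LPS vs LPS (Tyk2, without C498+LPS replicate 1). That of higher members in C498+LPS vs C498 ran from 1 to 2, with Jak2 lost without C498 replicate 1, C498 replicate 2 or C498+LPS replicate 1. Centring turned the sign in C498+LPS vs C498 for Jak1 (0.088), Stat3 (0.18) and Stat5b (0.14), and in C498 vs NC for Stat5a (-0.12). Quantile normalization turned it in C498+LPS vs C498 for Stat3 (0.018) and Stat5b (0.13), in C498+LPS vs LPS for Jak1 (0.029) and in C498 vs NC for Stat5a (-0.11). For these the cause was not tested.

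Leaving out 1 sample in turn, the following log2 changes crossed 0. In LPS vs NC, Jak1 ran from -0.15 to 0.50 and Stat5b from -0.058 to 0.42. In C498+LPS vs C498, Jak1 ran from -0.27 to 0.015, Stat3 from -0.11 to 0.029, Stat5b from -0.17 to 0.016 and Stat6 from -0.73 to 0.051. In C498+LPS vs LPS, Jak1 ran from -0.22 to 0.066 and Stat6 from -0.23 to 0.56. In C498 vs NC, Jak1 ran from -0.097 to 0.55, Jak3 from -0.12 to 0.041, Stat5a from -0.22 to 0.22, Stat5b from -0.30 to 0.18 and Stat6 from -0.98 to 0.080. The interaction of Jak1 ran from -0.63 to 0.021 and that of Jak3 from -0.079 to 0.086.

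Of 180 family shares recomputed, 169 kept their direction and 11 did not. On the log2 scale, as a difference from the family mean, the sign turned for Stat2 in C498+LPS vs C498 (-0.074), Stat3 in LPS vs NC (-0.10) and Stat5b in LPS vs NC (-0.24) and C498 vs NC (-0.017). Leaving out 1 sample in turn, the difference in percentage points ran from -4.97 to 1.22 for Stat2 in C498 vs NC, from -0.011 to 0.690 for Stat5a in C498 vs NC, from -0.474 to 0.531 for Stat5b in LPS vs NC and from -0.198 to 0.486 for Stat5b in C498 vs NC.

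The labels give no shared mouse, batch or day for a replicate number, and the correlations of the deviations of equally numbered samples ran from 0.040 to 0.168, all above 0 and 3 of 6 above 0.1, the level asked of every pair. The numbers were therefore not treated as pairs, without showing that they share nothing. With a replicate block, 2 members were called higher in C498+LPS vs C498 and 2 in LPS vs NC, as without it, and the limma log2 changes of Jak2 and Stat5a in LPS vs NC stayed at 2.33 and 1.88. By the adjusted p alone, the block in limma took Jak3 in LPS vs NC out (0.0514) and brought in Stat6 in LPS vs NC (0.0174) and Stat2 in C498+LPS vs LPS (0.0342).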
